A study of Mus musculus with 6 samples.

Results

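A set of 8 genes for the clearance of water, ions and glutamate from the space around brain cells was followed across cell types and libraries of mouse cortex in the hours that followed permanent closure of the middle cerebral artery by electrocoagulation (pMCAO). They are Aqp4, Slc12a2, Slc4a4, Kcnj10, Trpm4, Gja1, Gjb6 and Slc1a2, chosen by symbol, and each symbol matched 1 of the 32285 genes of the count matrix. Brain cells depleted of mature neurons were taken from the cortex of the ipsilateral (stroke) and the contralateral hemisphere at 1, 12 and 24 h, with 1 library for each of these 6 groups. The animals were male mice 8 to 12 weeks old, and all groups share the genotype RGS5::GFP het, in which GFP replaces 1 allele of Rgs5, so that no library comes from a wild-type animal. According to the labels, the libraries of 12 h were made with a later version of the Chromium 3′ kit than those of 1 and 24 h, whereas the methods name the later version alone, and name a sequencer for 24 h that differs from that of 1 and 12 h. The methods name 3 mice for this sequencing and do not assign the libraries to them. The 6 libraries are told apart only by a number from 1 to 6 after each cell barcode, and no label ties a number to a hemisphere or a timepoint. Values are therefore given for all cells pooled and for each numbered library, no difference between hemispheres or timepoints was examined, and no p-value was computed.

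At rest, astrocytes wrap vessels and synapses with fine processes and take up what neurons release. Water crosses the endfoot membrane through aquaporin-4, potassium enters through inward rectifier channels, sodium-coupled transporters remove glutamate, and gap junctions spread the load through the astrocyte network. After ischemia, ion gradients fail and the same routes are studied as paths of cell swelling, together with the sodium-potassium-chloride cotransporter NKCC1 and the calcium-activated cation channel Trpm4.

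Calling barcodes with enough UMIs (molecular tags that count each captured RNA molecule) and the filters of the study left 17357 cells with a median of 5338 UMIs, between 1221 and 5873 cells in a library. A group of 26 cell barcodes occurred in more than 1 library, in 52 cells. Graph clustering was run without the 8 genes and 92 related genes, and clusters were named from marker genes that exclude them. This gave 13 named classes, written as -like since the authors' own annotation was not used, and 561 cells stayed unnamed. The astrocyte-like class held 1161 cells in 2 clusters, with 165, 137, 408, 330, 31 and 90 cells in libraries 1 to 6. Each of its 10 marker genes was highest in this class, among them Aldoc, a glycolytic enzyme, at 3163 CPM against 234 CPM in the 22 choroid plexus-like cells, the next class, and least clearly Gfap, at 335 against 310.3 CPM in those cells. CPM is the UMIs of a gene summed over cells per 1000000 UMIs of the same cells, and intervals in parentheses are exact 95% Poisson or conditional intervals that cover counting error only. The libraries capture the 3′ ends of RNA, so that a level is compared between classes for 1 gene and not between genes.

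Of the 8 genes, 5 were highest in astrocyte-like cells (Aqp4, Slc4a4, Gja1, Gjb6 and Slc1a2), and the same 5 were at least 4 times higher there than in the next class. Over all 12939 genes with at least 200 UMIs in cells, 10.6% were highest in astrocyte-like cells and 1.78% were at least 4 times higher. The median ratio of astrocyte-like cells to the highest other class was 8.38 over the 8 genes and 0.368 over all these genes. The other 3 genes had their highest level elsewhere, Slc12a2 and Kcnj10 in oligodendrocyte-like cells and Trpm4 in microglia-like cells. For Trpm4 this holds by pooled value only, not beyond the counting error of the next class. Astrocyte-like cells were 6.69% of all cells and held 97.3% of the Aqp4, 96.2% of the Slc4a4, 97.8% of the Gjb6, 95.4% of the Slc1a2 and 82.7% of the Gja1 UMIs, but 15.9% of the Kcnj10, 2.06% of the Trpm4 and 1.42% of the Slc12a2 UMIs.

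**Figure D1:**
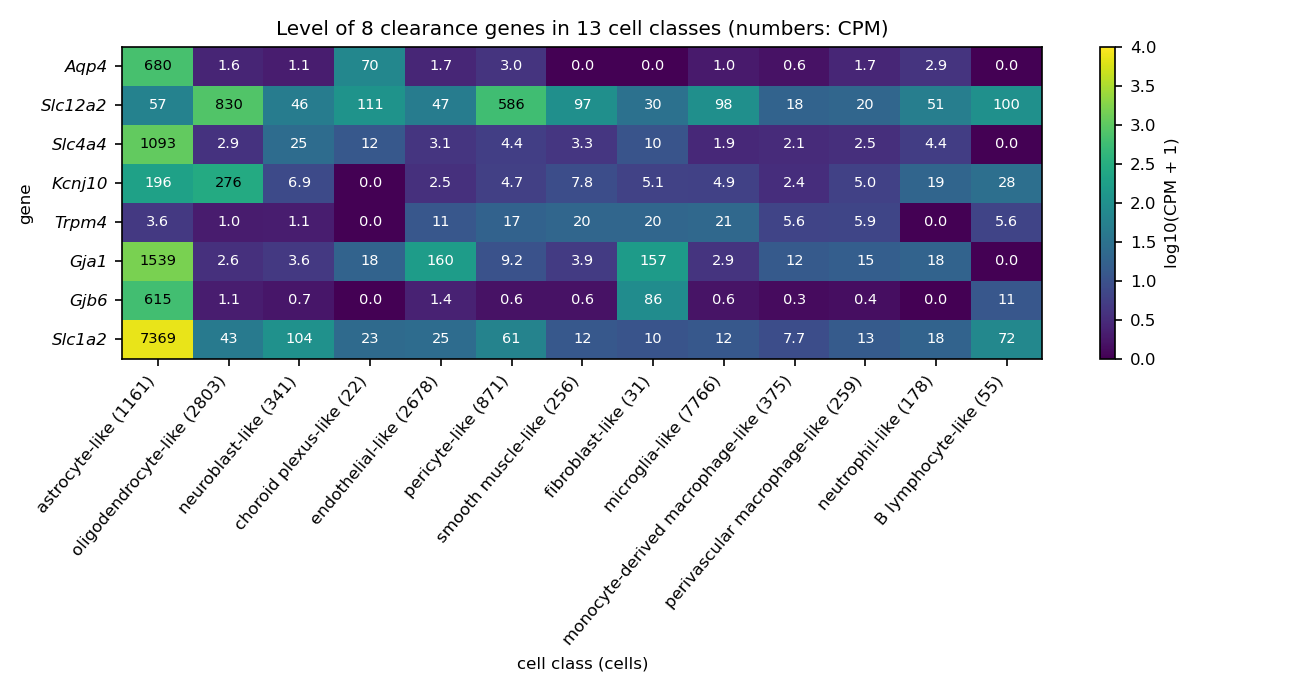
Level of each gene (rows) in the 13 named cell classes (columns, with their number of cells), printed as CPM and coloured by log10(CPM + 1). The astrocyte-like column is the highest in 5 rows, while Slc12a2 peaks at 830.4 CPM and Kcnj10 at 276 CPM in the oligodendrocyte-like column.

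**Figure D2:**
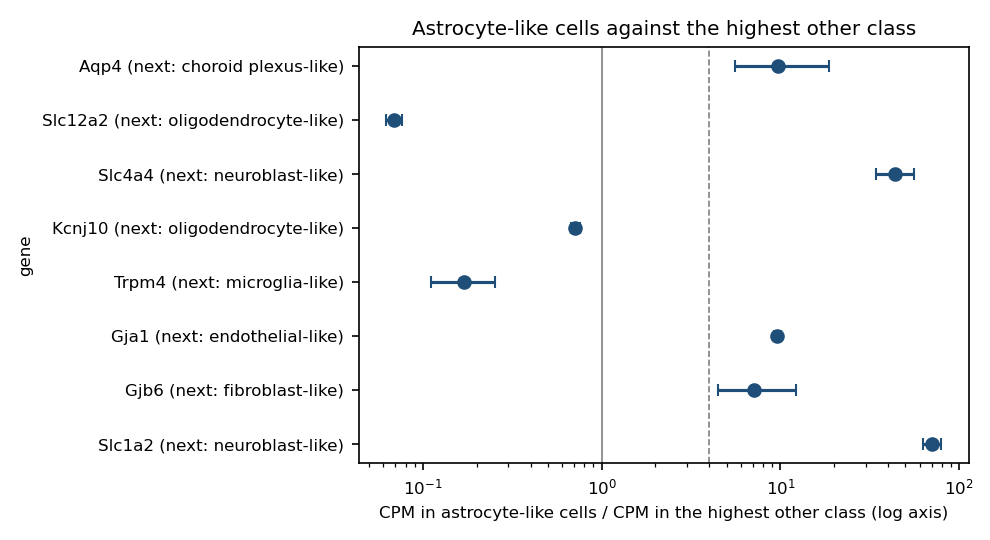
Ratio of the CPM in astrocyte-like cells to the CPM in the highest other class, named beside each gene, on a log axis. Bars are exact 95% intervals of counting error, the solid line marks 1 and the dashed line marks 4, and Slc1a2 lies farthest to the right at 70.5.

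Free RNA of broken cells adds UMIs to every droplet, and was measured in barcodes of 1 to 50 UMIs. Slc1a2 made up 670.8 CPM of it, Slc12a2 424 CPM, Gja1 149.5 CPM, Kcnj10 146 CPM, Slc4a4 113 CPM, Aqp4 65.8 CPM, Gjb6 50.2 CPM and Trpm4 9.91 CPM. If free RNA were 5% of the UMIs of a cell, a share that was assumed and not measured, these genes would reach 33.5, 21.2, 7.48, 7.28, 5.65, 3.29, 2.51 and 0.496 CPM in cells that lack them. These levels are given beside the low values that follow.

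The transcription start regions of 4 of the 8 genes could be read beside their class pattern, since RefSeq (GRCm38.p6) gave their 250 upstream bases clear of annotated exons. Kcnj10, shared by oligodendrocyte-like and astrocyte-like cells, is set beside Gja1, Gjb6 and Slc4a4, which were highest in astrocyte-like cells. Capitals mark GGGCGG on either strand, and the runs read 5′ to 3′ toward the start.
Kcnj10: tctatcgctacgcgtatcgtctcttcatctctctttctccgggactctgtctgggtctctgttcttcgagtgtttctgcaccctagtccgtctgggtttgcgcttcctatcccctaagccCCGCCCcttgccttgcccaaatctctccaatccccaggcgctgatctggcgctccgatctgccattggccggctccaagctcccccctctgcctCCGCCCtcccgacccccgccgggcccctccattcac
Gja1: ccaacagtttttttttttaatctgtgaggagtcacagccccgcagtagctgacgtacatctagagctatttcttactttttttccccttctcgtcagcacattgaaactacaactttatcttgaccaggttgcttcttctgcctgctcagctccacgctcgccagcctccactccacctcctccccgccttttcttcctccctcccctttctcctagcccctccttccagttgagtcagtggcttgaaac
Gjb6: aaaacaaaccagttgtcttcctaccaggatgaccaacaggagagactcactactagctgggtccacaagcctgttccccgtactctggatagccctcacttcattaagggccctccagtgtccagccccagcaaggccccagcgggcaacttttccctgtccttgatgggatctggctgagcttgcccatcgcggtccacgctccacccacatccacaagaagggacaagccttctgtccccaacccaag
Slc4a4: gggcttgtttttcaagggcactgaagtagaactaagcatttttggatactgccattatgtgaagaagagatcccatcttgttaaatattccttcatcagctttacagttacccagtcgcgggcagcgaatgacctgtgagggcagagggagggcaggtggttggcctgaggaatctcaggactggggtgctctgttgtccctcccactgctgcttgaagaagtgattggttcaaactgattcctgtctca
The Kcnj10 window is chr1:172340960-172341209 on the plus strand, with matches that begin 130 and 36 bases before the start. The Gja1 window is chr10:56377050-56377299 on the plus strand, the Gjb6 window chr14:57133612-57133861 on the minus strand, and the Slc4a4 window chr5:89027716-89027965 on the plus strand, at an internal start of that gene. Among all 32851 windows of this length, 32.7% held GGGCGG, and the windows of Gja1, Gjb6 and this Slc4a4 start did not. Another Slc4a4 window, which lies over annotated exons and is not printed, did hold it. The windows of Kcnj10, Gja1, Gjb6 and Slc4a4 had a GC content of 62%, 50%, 56.8% and 48.8%, against a median of 52.4%, and held 17, 6, 5 and 3 CpG, against a median of 6. The other letters searched on both strands were in none of the windows read here. Over all windows, TTGGCA stood in 12.3%, the letters ACAAAG in 16.5%, the spaced TTCNNNGAA in 7.02% and the box TATAAA in 12.4%. Counts from 3′ ends do not show which start a transcript used.

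Aqp4 (ENSMUSG00000024411; GRCm38 chromosome 18, 15389496 to 15410982, minus strand) encodes the water channel of astrocyte endfeet. It reached 680.2 CPM (661–700) in astrocyte-like cells, and a UMI was found in 81.5% of them. Libraries 1 to 6 had 593, 726, 567, 723, 740.0 and 1051 CPM, so that library 6 stood above the others and its interval (973–1133) met none of theirs. The next class was choroid plexus-like, at 70.3 CPM (36.3–123) from 12 UMIs in 22 cells, a ratio of 9.68 (5.54–18.8). Only 3 of the 22 cells had an Aqp4 UMI and 1 of them held 6, which the intervals do not cover. Those 22 cells also carried Gfap and Aldoc, and the part of astrocyte RNA in them was not tested. Without library 3, 4 or 6 fewer than 20 choroid plexus-like cells were left, another class was next, and the ratio was 224, 227 or 164. In the 11 classes below, Aqp4 lay between 0 and 2.97 CPM, under the 3.29 CPM of 5% free RNA, and a UMI was found in 0.489% of microglia-like cells at a median depth of 5084 UMIs against 5584 in astrocyte-like cells. After each cell was thinned to 1000 UMIs, the shares were 42.8% in astrocyte-like and 0.116% in microglia-like cells.

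Gja1 (ENSMUSG00000050953; GRCm38 chromosome 10, 56377330 to 56402513, plus strand) encodes connexin 43, the main gap junction protein of astrocytes. Astrocyte-like cells had 1539 CPM (1510–1568) and 94.2% of them had a UMI. The 6 libraries gave 1409, 1823, 1733, 1380, 1533 and 1168 CPM, and library 6 was the lowest. Endothelial-like cells reached 160.1 CPM (153–168) and fibroblast-like cells 157 CPM (107–223), which do not differ beyond counting error. The ratio of astrocyte-like to endothelial-like cells was 9.61 (9.15–10.1). Without library 6, fibroblast-like cells were next at 252 CPM and the ratio was 6.25. Endothelial-like cells had 6.37 UMIs of Gja1 for each UMI of Slc1a2, against 0.209 in astrocyte-like cells and 0.223 in free RNA. Within the endothelial-like class, Gja1 was 294 CPM (275–314) in the cluster of 585 cells led by Tmem252, Ctla2a and Scgb3a1 and 114 CPM (107–121) in the larger cluster of 2093 cells. In libraries 1 to 6 endothelial-like cells had 96.1, 69.1, 126, 331, 78.0 and 194 CPM of Gja1, a ratio of 4.79 (3.54–6.63) between library 4 and library 2, and 56.2% of the cells of the higher cluster came from 1 library.

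Gjb6 (ENSMUSG00000040055; GRCm38 chromosome 14, 57123303 to 57133611, minus strand) encodes connexin 30, which joins connexin 43 in astrocyte gap junctions. It had 615 CPM (597–633) in astrocyte-like cells and a UMI in 87.0% of them. Libraries 1 to 6 had 724, 677, 626, 553, 676 and 528 CPM, the smallest ratio of highest to lowest library among the 7 genes for which one could be formed. It was at most 1.44 CPM in endothelial-like, oligodendrocyte-like and microglia-like cells, below 5% free RNA. The next class was fibroblast-like, with 86.0 CPM (50.1–138) from 17 UMIs in 31 cells, a ratio of 7.15 (4.46–12.3), which was 17.1 without library 3 and 4.08 without library 6. In that class 6 cells had a Gjb6 UMI and 1 cell held 10 of the 17, which the interval does not cover. Gjb6 stood there at 8.50 UMIs for each UMI of Slc1a2, against 0.0835 in astrocyte-like cells. This value rests on 2 Slc1a2 UMIs, both in 1 cell. Gjb2, another connexin with 131 UMIs in all cells, was also highest in fibroblast-like cells at 157 CPM.

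Slc1a2 (ENSMUSG00000005089; GRCm38 chromosome 2, 102658659 to 102790784, plus strand) encodes GLT-1, the transporter that removes most glutamate from forebrain synapses. Its level in astrocyte-like cells was 7369 CPM (7307–7432), and 99.8% of them had a UMI, or 97.9% after thinning. Libraries 1 to 6 had 5057, 5990, 7946, 8260, 7011 and 7153 CPM, lowest in library 1. The next class was neuroblast-like at 104.5 CPM (92.7–117), a ratio of 70.5 (62.8–79.5), the largest of the 8 genes. Pericyte-like cells had 61.1 CPM (53.0–70.0), oligodendrocyte-like cells 43.0 CPM and microglia-like cells 11.8 CPM, next to 33.5 CPM for 5% free RNA. Between libraries, the pericyte-like level ran from 3.62 CPM in library 6 to 130.0 CPM in library 1, where free RNA held 511 and 833 CPM of Slc1a2.

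Slc4a4 (ENSMUSG00000060961; GRCm38 chromosome 5, 88886818 to 89239653, plus strand) encodes NBCe1, a sodium bicarbonate cotransporter that links astrocyte pH to neuronal activity. Astrocyte-like cells had 1093 CPM (1069–1117) and 93.7% of them had a UMI. In libraries 1 to 6 the level was 969, 1093, 1050, 1081, 1475 and 1373 CPM, so that libraries 5 and 6 were the highest and libraries 2, 3 and 4 lay within counting error of each other. The next class was neuroblast-like at 25.1 CPM (19.5–31.8), a ratio of 43.5 (34.3–56.0). In the other 11 classes it lay between 0 and 11.7 CPM.

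Kcnj10 (ENSMUSG00000044708; GRCm38 chromosome 1, 172341210 to 172374085, plus strand) encodes Kir4.1, the inward rectifier that buffers extracellular potassium and is carried by astrocytes and oligodendrocytes. Oligodendrocyte-like cells were the higher class, at 276 CPM (270.0–283) against 196 CPM (186–207) in astrocyte-like cells, a ratio of 0.711 (0.671–0.752) of the latter to the former. A UMI was found in 82.2% of oligodendrocyte-like and 53.7% of astrocyte-like cells at median depths of 8874 and 5584 UMIs, and in 22.8% and 18.3% after thinning. The third class, B lymphocyte-like, had 27.8 CPM (9.02–64.9) from 5 UMIs, and microglia-like cells had 4.85 CPM, under the 7.28 CPM of 5% free RNA.
Astrocyte-like cells of libraries 1 to 6 had 83.5, 110.1, 190, 272, 170 and 241 CPM of Kcnj10. The ratio of library 4 to library 1 was 3.26 (2.57–4.18). Oligodendrocyte-like cells of the same libraries had 221, 204, 351, 333, 240 and 216 CPM, highest in library 3, with a ratio of 1.73 (1.60–1.86) to library 2. Libraries 1 and 2 were thus the lowest in astrocyte-like cells, and their intervals, up to 104 and 137 CPM, lay below those of libraries 3, 4 and 6. Oligodendrocyte-like cells were higher than astrocyte-like cells by value in 5 of 6 libraries, the exception being library 6, where the intervals overlap.

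Slc12a2 (ENSMUSG00000024597; GRCm38 chromosome 18, 57878678 to 57946821, plus strand) encodes NKCC1, which brings sodium, potassium and chloride into cells. Oligodendrocyte-like cells had 830.4 CPM (819–842), with a UMI in 97.1% of them, and held 72.6% of all its UMIs. Pericyte-like cells followed at 586 CPM (560.4–612), with 123.5 UMIs of Slc12a2 for each UMI of Kcnj10 against 3.004 in oligodendrocyte-like cells and 2.91 in free RNA. Libraries 1 to 6 had 808, 756, 892, 792, 1010 and 780.3 CPM in oligodendrocyte-like cells and 684, 803, 604, 596, 606 and 378 CPM in pericyte-like cells, the lowest pericyte-like value being that of library 6. Microglia-like cells had 98.1 CPM (95.1–101), from 68.7 to 129 CPM over the libraries, against 21.2 CPM for 5% free RNA.
Astrocyte-like cells had 57.3 CPM of Slc12a2 (51.9–63.1), a ratio of 0.0690 to oligodendrocyte-like cells, and a UMI was found in 17.6% of them against 35.0% of microglia-like cells. Libraries 1 to 6 had 96.2, 32.1, 67.7, 39.7, 15.97 and 57.9 CPM, a ratio of 6.03 (1.998–29.8) between library 1 and library 5, where 31 cells held 3 UMIs, and of 3.002 without library 5. Oligodendrocyte markers in the same astrocyte-like cells summed to 3239, 1116, 1780, 572, 240 and 1079 CPM, against 50343 CPM in oligodendrocyte-like cells, and none of these 8 markers was at 0. Without 88 cells in 2 doublet-rich subclusters, which are described with the subclusters, Slc12a2 was 28.8 CPM (24.7–33.3), near the 21.2 CPM of 5% free RNA, and the 6 libraries had 21.9, 20.3, 29.9, 36.4, 15.97 and 20.6 CPM, while oligodendrocyte markers ran from 135 to 324 CPM. Leaving out those 88 cells thus took the ratio of highest to lowest library from 6.03 to 2.28 for Slc12a2. Library 5 was the lowest both times, on 3 UMIs (3.29–46.7 CPM). Its interval overlaps that of library 4 (28.6–45.7 CPM), the highest after removal. For Kcnj10 the ratio was 4.54 without the 88 cells, with 60.5, 110.3, 190, 275, 170 and 264 CPM in libraries 1 to 6.

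Trpm4 (ENSMUSG00000038260; GRCm38 chromosome 7, 45302632 to 45333780, minus strand), a cation channel opened by intracellular calcium, was found at 21.2 CPM or less in each class. Microglia-like cells had 21.2 CPM (19.8–22.6), fibroblast-like cells 20.2 CPM, smooth muscle-like cells 20.03 CPM and pericyte-like cells 17.2 CPM, of which neighbours in this order do not differ beyond counting error. Endothelial-like cells had 11.1 CPM (9.27–13.2). Astrocyte-like cells had 3.62 CPM (2.36–5.30) from 26 UMIs, above the 0.496 CPM of 5% free RNA and 0.171 times the microglia-like level (0.102 times the next class without library 2). Their 6 libraries had 6, 10, 7, 2, 0 and 1 UMIs, too few for a full order, and the 0 of library 5 allows up to 19.6 CPM. By interval, library 2, at 13.9 CPM (6.68–25.6), lay above library 3 (1.10–5.64) and library 4 (0.113–3.37). Of the 26 UMIs, 7 lay in the doublet-rich subcluster 8, which carried microglia markers. Without the 2 doublet-rich subclusters, 18 UMIs were left in astrocyte-like cells, at 2.88 CPM (1.70–4.54). Of these 18, library 2 held 10 and library 3 held 1. Microglia-like cells of libraries 1 to 6 had 24.6, 16.6, 22.2, 20.7, 20 and 20.5 CPM, so that the largest source by UMIs, 70.4% of all, differed by less than counting error between the highest and the lowest library (ratio 1.48, 0.894–2.46).

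**Figure D3:**
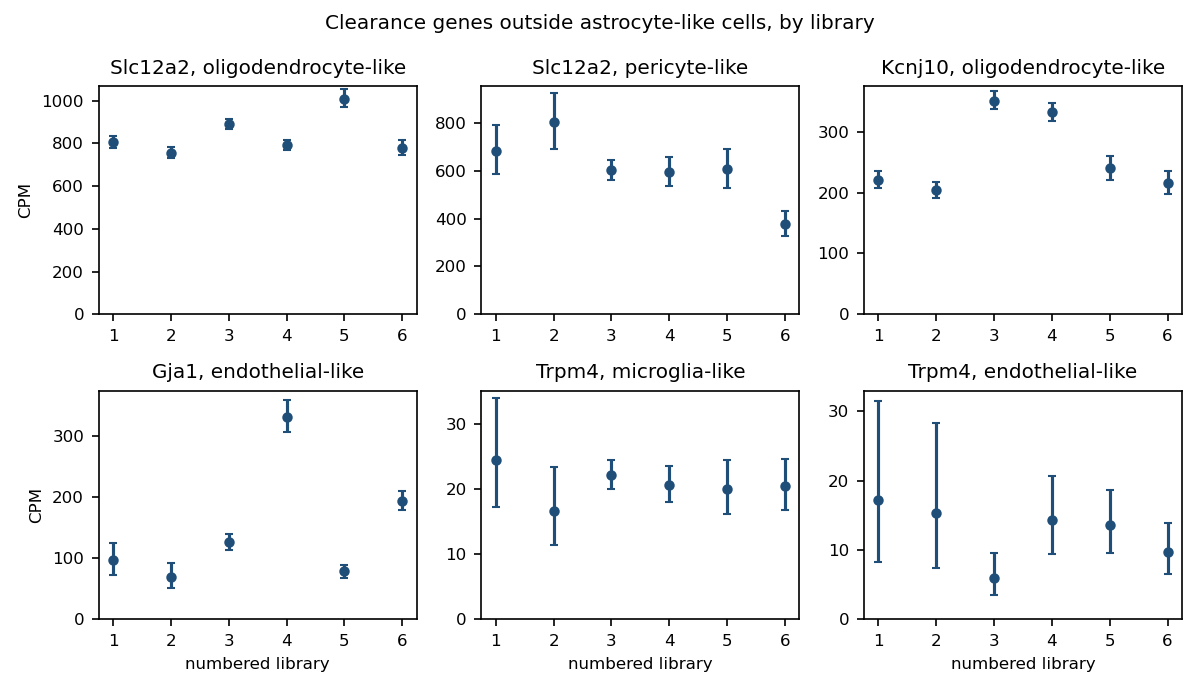
CPM (vertical axis, from 0) of 4 genes in classes outside the astrocyte-like cells, for each numbered library (horizontal axis), with exact 95% Poisson intervals as bars. Gja1 in endothelial-like cells runs from 69.1 CPM in library 2 to 331 CPM in library 4, while Trpm4 in microglia-like cells stays between 16.6 and 24.6 CPM.

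Over the libraries, 2 of the 7 genes with at least 200 UMIs in astrocyte-like cells differed by more than 2 times between the highest and the lowest library (Slc12a2 and Kcnj10), and Trpm4, below that number, had a library at 0. Among the 5500 genes with as many UMIs in these cells, 45.3% differed by more than 2 times. The median ratio of highest to lowest library was 1.63 over the 7 genes and 1.92 over the 5500 genes. Neither this median nor the share of 45.3% is matched for UMIs. Aqp4, Slc4a4, Gja1, Gjb6 and Slc1a2 had 4421 to 52979 UMIs in astrocyte-like cells, whereas the 5500 genes start at 200. Counting error alone widens the ratio of a gene with few UMIs, and its part was not tested. Aqp4 had a ratio of 1.85, Slc1a2 of 1.63, Gja1 of 1.56, Slc4a4 of 1.52 and Gjb6 of 1.37. The reactive astrocyte gene Gfap, an intermediate filament protein, had 59.2, 71.1, 93.1, 678, 58.6 and 943 CPM in the same cells, a wider range than any of these 5. Its relation to the 8 genes across libraries was not tested. As the library numbers carry no condition, stroke, time, kit and sequencing run cannot be told apart in these differences, and fewer cells of one state and less RNA per cell cannot be told apart in a level pooled over cells.

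**Figure D4:**
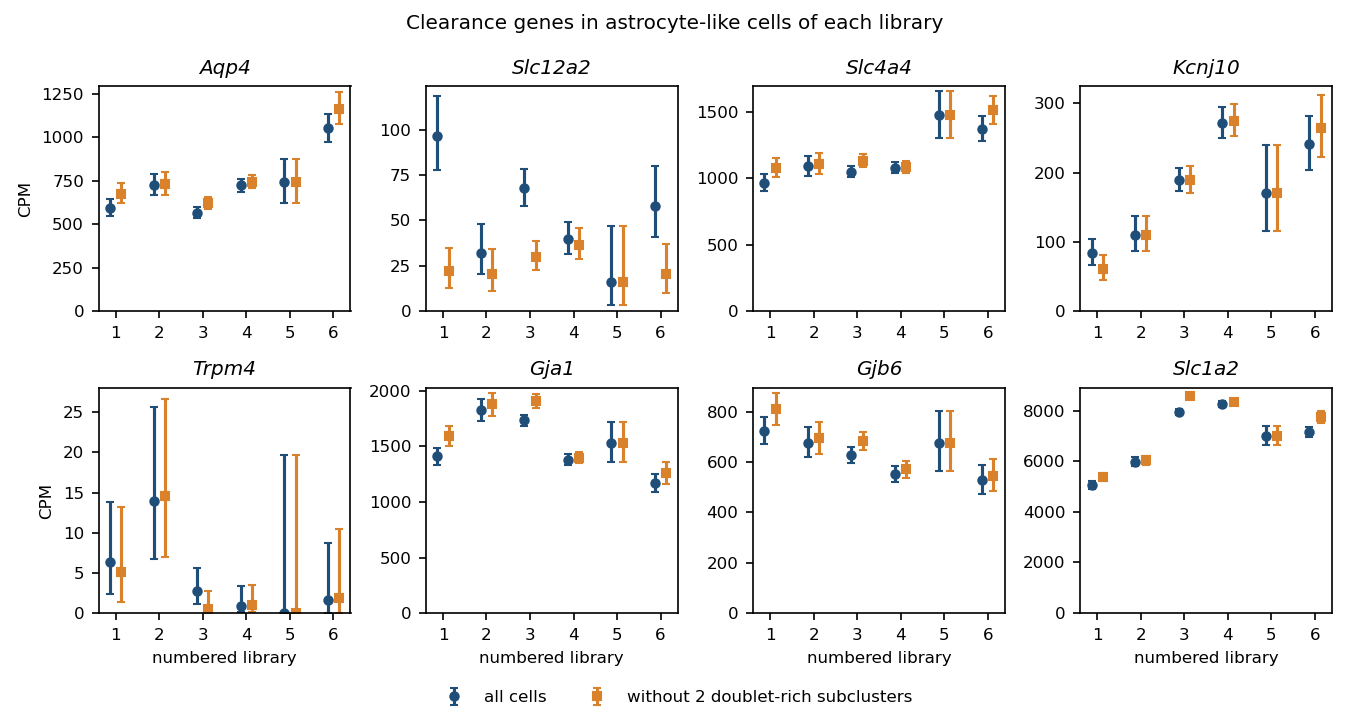
CPM (vertical axis, from 0) of each gene in the astrocyte-like cells of each numbered library (horizontal axis), for all cells (circles) and without the 2 doublet-rich subclusters (squares), with exact 95% Poisson intervals as bars. The Slc12a2 value of library 1 falls by this removal from 96.2 to 21.9 CPM, whereas the library 4 value of Kcnj10 is 272 and 275 CPM.

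The astrocyte-like cells fell into 2 clusters. The larger, of 742 cells, was led by Aldoc, Clu and Mt3, and had a median of 6662 UMIs per cell. The smaller, of 419 cells, was led by Trim9, Nwd1 and Gria2, had 3495 UMIs per cell, and had more of the nuclear RNA Malat1, at 246851 against 170218 CPM. Aqp4 was 792 CPM in the larger and 359 CPM in the smaller cluster, a ratio of 0.453 (0.417–0.492), and Gja1 was 1744 against 950.4 CPM, a ratio of 0.545 (0.518–0.574). Both genes were lower in the smaller cluster in each of the 6 libraries. Kcnj10 went the other way by value in each library, at 187 and 224 CPM (ratio 1.198, 1.07–1.35), but the intervals of the 2 clusters overlap in libraries 1, 2 and 3. Library 5 had only 18 and 13 cells in the 2 clusters. These directions by library were taken with the doublet-rich subclusters kept. Without those subclusters Kcnj10 was 189 and 232 CPM over all libraries, and the 2 clusters were not compared within single libraries. In library 1 their removal took Kcnj10 over both clusters from 83.5 to 60.5 CPM, or from 79 to 47 UMIs. The larger cluster of library 1 had 70.5 CPM with those subclusters kept. The direction in library 1 without them was not tested. Slc4a4 had 1134 and 974 CPM and Gjb6 642 and 538 CPM, but without the doublet-rich subclusters both clusters had 1152 CPM of Slc4a4, and had 658 and 625 CPM of Gjb6. Slc12a2 was 30.4 and 134.5 CPM in the 2 clusters, and 27.5 and 33.3 CPM without those subclusters. On the same cells, Aqp4 was still 821 against 388 CPM, Gja1 1788 against 1053 CPM and Slc1a2 7301 against 9227 CPM. The part of cell depth and of nuclear RNA in these differences was not tested.

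Re-clustering the astrocyte-like cells without the 8 and the related genes gave 11 subclusters, numbered 0 to 10 from the largest. Subcluster 8, of 56 cells, had 58.9% of its cells called doublets and carried microglia markers at 7823 CPM, and subcluster 9, of 32 cells, had 43.8% called doublets and oligodendrocyte markers at 21679 CPM. Slc12a2 was 518 CPM in subcluster 9 and between 19.02 and 82.4 CPM in each other subcluster. Subcluster 3, of 142 cells, was led by S100a9, S100a8 and S100a10 and carried the most Gfap, at 1166 CPM, with 104 of its cells from library 4 and 37 from library 6. Its Aqp4 was 975 CPM, the highest of the subclusters, its Gja1 1237 CPM and its Kcnj10 252 CPM. Neutrophil markers, which include S100a8 and S100a9, summed to 586 CPM in it, and their part was not tested. Subcluster 7, of 56 cells and mostly of the smaller cluster, also had Gfap at 878 CPM, with Aqp4 at 556, Gja1 at 529 and Kcnj10 at 393 CPM, so that subclusters 3 and 7, both rich in Gfap and in cells of library 4, differed in Aqp4 and Gja1. Subcluster 10, of 31 cells with Mfap2 and Thbs4 among its leading genes, had the least Gjb6, at 51.9 CPM against 333 to 808 CPM in the other 10, and the least Slc4a4 at 368 CPM. Its Slc1a2, at 4865 CPM (4585–5158), was the lowest by value only, since the interval overlaps those of subclusters 6, 8 and 9. Subcluster 10 also had Gfap, at 817 CPM. Its Kcnj10, at 203 CPM, was close to the 196 CPM of all astrocyte-like cells.

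**Figure D5:**
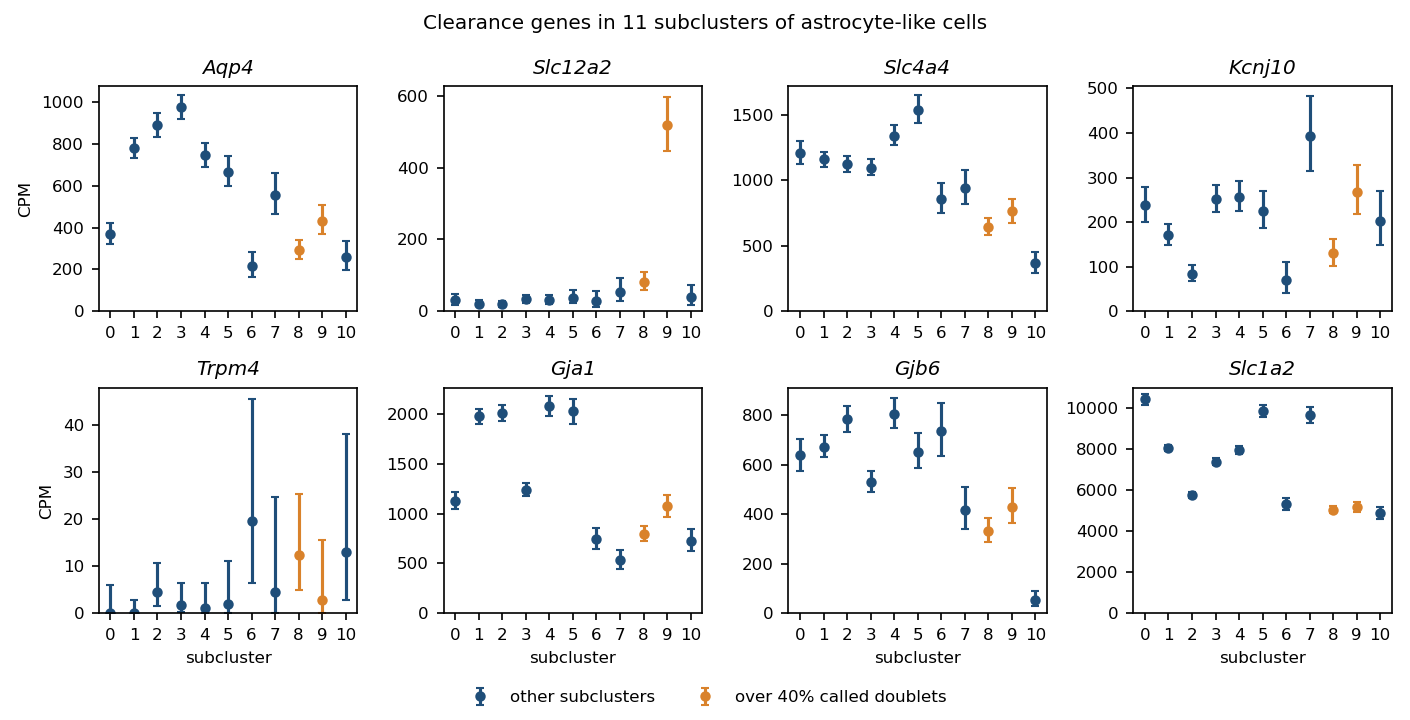
CPM (vertical axis, from 0) of each gene in the 11 subclusters of astrocyte-like cells (horizontal axis, numbered from the largest), with exact 95% Poisson intervals as bars and the 2 doublet-rich subclusters in orange. Subcluster 9 stands alone for Slc12a2 at 518 CPM and subcluster 10 for Gjb6 at 51.9 CPM.

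Single cells often carried several of the genes. Astrocyte-like cells had UMIs of a median of 5 of the 8 genes, and 79.8% had at least 5 of them, or 17.1% after thinning. Oligodendrocyte-like cells had a median of 2, and 0.428% had at least 5. Among astrocyte-like cells the closest pair was Aqp4 and Gja1, with a Pearson r of 0.381 of their log-normalized counts over 1161 cells, which share library and depth, and Gja1 and Slc4a4 followed at 0.326. Gjb6 and Slc1a2 had an r of -0.0167. Such values in sparse counts are a description.

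The genes whose level followed each of the 8 most closely over the 13 classes were found by Pearson r of log2(CPM + 10). For Aqp4 they were Mro (0.998), Ppil6 (0.995) and Gpr37l1 (0.992), and for Gja1 Fgd6 (0.947), Acat3 (0.931) and Cyp2d22 (0.925). Gjb6 was closest to Crym (0.986), Etv4 (0.983) and Ptprt (0.982), Slc1a2 to Bcan (0.971), Cspg5 (0.969) and Trim9 (0.963), and Slc4a4 to Rmst (0.990), Slitrk2 (0.987) and Rfx4 (0.986). Kcnj10 had Omg (0.992), Lrp1b (0.984) and Megf10 (0.983), of which Omg and Lrp1b were highest in oligodendrocyte-like and Megf10 in astrocyte-like cells. For Slc12a2 the values were lower, with Osbpl7 (0.938), Hecw2 (0.893) and Stag2 (0.849), as for Trpm4 with Pdia5 (0.941), Spcs3 (0.901) and Il6st (0.895). The classes share libraries and free RNA, and none of the 24 genes is among the 8. Gpr37l1 is among the markers that named the astrocyte-like class, so its closeness to Aqp4 over these classes is not independent of the naming. Cspg5 is on the marker list of oligodendrocyte precursors, a name that no cluster received.

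Around the 8 genes, 92 others of the same families were listed, of which 71 had at least 200 UMIs. Of these 71, 14 were highest in astrocyte-like cells, 13 in oligodendrocyte-like cells, 6 in endothelial-like cells and 38 in another class, and 8 were at least 4 times higher in astrocyte-like cells than in the next class. Over all 12939 genes with at least 200 UMIs, 10.6% were highest in astrocyte-like cells and 1.78% were at least 4 times higher there. No such share is given for the other classes. The median ratio of astrocyte-like cells to the highest other class was 0.260 over the 71 genes and 0.368 over all these genes.
Among proteins that hold the water channel at the endfoot or act beside it, Dtna, a dystrobrevin, had 518 CPM in astrocyte-like cells against 76.5 in the next class, and Mlc1, a membrane protein of endfeet, 337 against 76.1 CPM. Hepacam, the adhesion partner of Mlc1, was shared with oligodendrocyte-like cells, at 433 and 329 CPM. Dmd and Dag1, of the dystrophin complex, were highest in pericyte-like cells at 438 and 253 CPM, with 217 and 152 CPM in astrocyte-like cells. The only other aquaporin with at least 200 UMIs was Aqp11, at 163 CPM in endothelial-like and 23.2 CPM in astrocyte-like cells.
For glutamate, the second astrocyte transporter Slc1a3 had 2878 CPM in astrocyte-like cells against 506 CPM in fibroblast-like cells, whereas Slc1a1 was highest in endothelial-like cells at 270.0 CPM. Glul, which turns glutamate into glutamine, was 2649 CPM in astrocyte-like and 2703 CPM in oligodendrocyte-like cells. Glud1, which oxidizes glutamate, was 675 against 240.5 CPM in pericyte-like cells.
Of potassium channels, Kcnj16, which forms channels with Kcnj10, had 81.4 CPM in astrocyte-like cells and at most 0.761 CPM elsewhere, also in oligodendrocyte-like cells, while Kcnk1, a leak channel, had 608 against 135 CPM. Among sodium pump subunits, Atp1b2 was highest in astrocyte-like cells at 879 CPM, against 600.2 CPM in pericyte-like cells. Of the other cotransporters of the Slc12 family with at least 200 UMIs, Slc12a4 was highest in astrocyte-like cells by value only, at 69.97 CPM against 65.8 CPM in the 31 fibroblast-like cells. Stk39, a kinase that activates Slc12a2, had 22.3 CPM in astrocyte-like cells against 126 CPM in oligodendrocyte-like and 626 CPM in choroid plexus-like cells. The kinase Wnk1, upstream of Stk39, was highest in oligodendrocyte-like cells at 499.7 CPM. The oligodendrocyte connexins Gjc3 and Gjb1 had 722 and 287 CPM in oligodendrocyte-like cells and at most 25.3 CPM in astrocyte-like cells. Ttyh1 and Ttyh3, tweety family proteins, were 1562 and 371 CPM in astrocyte-like cells, against 124 and 59.1 CPM in the next class.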

How the data were processed

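UMI counts per gene and barcode were deposited as 1 sparse matrix of 32285 genes. The authors made it with Cell Ranger (version 5, per the labels, 5.0.1 in the file header) on mm10 and joined the 6 libraries with its aggregation step, which evens out read depth between libraries. The annotation release is not given in the sources used here. Cells had been digested with collagenase and dispase, depleted of myelin and neurons on an albumin gradient and sorted as DAPI-negative.

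From these counts, barcodes were called cells at 0.1 times the 99th percentile of the top 3000 barcodes of a library, with at least 200 features and at most 10% mitochondrial UMIs (17357 cells against 19864 under the last 2 filters alone). Library totals were 12427757 to 40793772 UMIs, and the median depth of cells was 5053 to 5660 UMIs. Clustering used 2000 variable genes without the 8 genes and 92 related ones, 30 principal components, 20 neighbours and Leiden resolution 0.8 (leidenalg 0.10.2, igraph 0.11.9, scanpy 1.11.5, Python 3.11.15). A cluster was named where at least 3 markers were raised 2 times over the median cluster and led the next class by 1 on the log2 scale; this rule was set after the clusters were seen. Scrublet called 1.9% of cells doublets, which were kept. Clusters with over 50% of cells called doublets stayed unnamed. Subclusters of astrocyte-like cells were termed doublet-rich at over 40%, and subcluster 9, at 43.8%, would not pass a cutoff of 50%. Intervals are exact and cover counting error only. Libraries carry no group, so each was described alone, and no test was run. The steps were tested on counts simulated from pooled class profiles. The simulation added no doublets, free RNA or differences between libraries or between cells of a class, so that it does not cover their effect. The alternatives were the cell call, doublet removal, per-cell means, resolution 0.4 and 1.2, clustering with the 8 genes, subtraction of free RNA and each library left out. Genes named beside the 8 came from the related lists, the 3 closest by r per gene and the genes that lead a cluster or subcluster. The genes and lists were chosen with earlier results of these data known.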

Additional observations from a re-analysis of the deposited data

How the results depend on the processing

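The number of genes highest in astrocyte-like cells, and the number at least 4 times higher there, was 5 in each of 16 alternatives. The number of genes over 2 times apart between libraries, 3 with Trpm4, was 3 in each fit that left out 1 library. It was 6 in the smaller astrocyte-like cluster alone, an alternative chosen after seeing the data that keeps 5 libraries, and 2 in the larger. The 6 include Trpm4, which had 0 UMIs in the 30 cells of library 6 in that cluster. The smaller cluster had a median of 3495 UMIs per cell, against 6662 in the larger. No share of all genes is given within either cluster. Whether 6 is many for such cells was thus not tested, nor was the part of counting error. Over the alternatives the ratio to the next class ran from 5.11 to 227 for Aqp4, 4.08 to 17.1 for Gjb6, 5.94 to 12.6 for Gja1, 65.3 to 103.5 for Slc1a2, 34.2 to 55.9 for Slc4a4, 0.633 to 0.810 for Kcnj10, 0.0346 to 0.162 for Slc12a2 and 0.102 to 0.280 for Trpm4. The Slc12a2 ratio between libraries ran from 1.995 to 6.54, and could not be formed after subtraction of free RNA, which left a library at 0. None is given for Trpm4, which had no UMI in library 5. No paired analysis was possible because each group has 1 library and the library numbers carry no group. Depth limits Trpm4, with 26 UMIs in astrocyte-like cells, and library 5, with 31 such cells.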

Other observations

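Outside the listed comparisons, some clusters within a class differed in the level of these genes. Among oligodendrocyte-like cells, the cluster of 145 cells led by Serpina3n, Btc and Il33 had 365 CPM of Slc12a2 and 186 CPM of Kcnj10, against 888 and 286 CPM in the largest such cluster, and 66.2% of its cells came from 1 library. Among pericyte-like cells, the cluster of 66 cells led by Il11 and Ccl11 had 174 CPM of Slc12a2 (135–221) against 639 CPM in the larger one. The value of the smaller cluster rests on 67 UMIs, and 53.0% of its cells came from 1 library. The part of library in this difference was not tested. Trpm4 lay between 16.96 and 25.8 CPM in the 5 largest microglia-like clusters. The immediate early genes Fos and Jun ran from 90.5 to 853 CPM and from 133 to 775 CPM over the libraries of astrocyte-like cells, and their relation to the 8 genes was not tested. These values include the doublet-rich subcluster 8, which had the most Fos and Jun of the subclusters, at 1285 and 2967 CPM. Of its 56 cells, 36 came from library 3 and 6 from library 6. The highest Fos value was that of library 6. There 67.8% of astrocyte-like cells had a Fos UMI, against 10.9% to 30.3% in the other libraries.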
